A study of Homo sapiens with 42 samples.

Results

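The chromatin loops described here lost contacts within 6 h of treatment with PMA (phorbol 12-myristate 13-acetate) and stood at about the same lower level after 72 h. Both traits were required by their selection. A loop in a Hi-C map is a pair of distant genomic segments, here 10 kb each and called anchors, that touch more often than segments at that distance usually do. The loops were selected on their own contact counts by a fixed rule. Counts were summed per time and biological replicate, loops with a mean raw count of 10 or more over the 12 libraries were kept, and each library was scaled to 1000000 contacts over the kept loops, which gives the scaled contacts used below. A loop was a member when every 6 h library and every 72 h library lay below every 0 h library, when the mean at 6 h was at most 0.8 of the mean at 0 h, and when neither of the means at 6 h and 72 h was below 0.8 of the other. The rule found 441 loops, which are 1.93% of the 22795 kept loops and 1.3% of the 33914 loops of the table. A pair of them, loop29504 and loop29506, is 1 pair of anchors listed a second time with the anchors swapped and identical counts, so 440 members are distinct.

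The study followed K562 cells, an established line from a patient with chronic myeloid leukaemia that carries features of both red blood cell and platelet precursors, by in situ Hi-C. All cells were wild type and grown in the same serum-containing medium. The groups were cells at the start of the treatment (0 h) and cells kept in 25 nM PMA for 6 h or 72 h, which the labels name as a megakaryocyte differentiation, with 14 samples per time that belong to 4 biological replicates each. The labels do not say that the replicates came from separate cultures, so p-values measure only the spread between these libraries, which may be technical. Between replicates 3 and 4 no difference beyond the sampling noise was detectable over the loops at 0 h (chi-square p = 0.0985) or at 72 h (p = 0.577). The same chi-square check gave p = 0.0283 at 6 h, not far under 0.05. Replicates 3 and 4 therefore enter each mean ± SD together as 1 sample at 0 h and 72 h but apart at 6 h. This leaves n = 3 at 0 h, n = 4 at 6 h and n = 3 at 72 h. Ratios between times use, as in the rule, the plain means over the 4 libraries of a time, unless single replicates are named. They can thus differ slightly from the ratio of the means given with an SD. The main edgeR fit counts all 12 libraries as separate samples. The libraries held between 736929 and 1472197 loop contacts, and the median member had 64 contacts in a library (95% Poisson interval 49.3 to 81.7, counting error only). Hi-C reads DNA contacts, so the labelled cell state could not be checked against the expression of its markers.

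As background, many loops form when the ring complex cohesin reels in DNA until it meets CTCF, a zinc finger protein bound in convergent orientation at both anchors, and others connect gene promoters with enhancers. PMA mimics diacylglycerol, activates protein kinase C and through it the AP-1 transcription factors. K562 cells exposed to PMA stop dividing, spread and take on properties of megakaryocytes, while the red cell programme driven by GATA1, LDB1 and KLF1 recedes.

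The promoters of 4 genes with a start site in a member anchor are shown to make the anchors concrete. GALP, a gene for a galanin-like neuropeptide, lies at the member with the lowest ratio of 6 h to 0 h, and PROK1, a gene for a secreted prokineticin, at a member with one of the highest contact levels at 0 h. EPOR, the receptor for erythropoietin, and ALAD, an enzyme of heme synthesis, were chosen after their values and motif matches were seen. Each sequence holds the 250 bases before the RefSeq start site (GRCh38.p14), 5′ to 3′ on the strand of the gene, at chr19:56175758-56176007 (plus strand) for GALP, chr1:110450899-110451148 (plus strand) for PROK1, chr19:11384315-11384564 (minus strand) for EPOR and chr9:113401285-113401534 (minus strand) for ALAD. Capitals mark matches, on either strand, to 4 motifs, namely AP-1 with the letters TGANTCA, KLF with the letters CCACACCC, GATA with the letters AGATAAG, and the CTCF core, which starts with CC and has AGGGGGC after any 3 bases.
GALP: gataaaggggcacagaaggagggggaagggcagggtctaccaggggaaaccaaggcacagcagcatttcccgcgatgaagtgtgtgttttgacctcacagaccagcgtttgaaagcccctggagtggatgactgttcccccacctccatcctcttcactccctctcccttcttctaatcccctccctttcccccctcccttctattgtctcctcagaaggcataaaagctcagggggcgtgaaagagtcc
PROK1: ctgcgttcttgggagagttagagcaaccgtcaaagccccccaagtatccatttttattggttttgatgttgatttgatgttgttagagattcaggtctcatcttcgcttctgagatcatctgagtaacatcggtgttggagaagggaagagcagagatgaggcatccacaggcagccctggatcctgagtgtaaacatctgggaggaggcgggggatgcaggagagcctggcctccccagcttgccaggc
EPOR: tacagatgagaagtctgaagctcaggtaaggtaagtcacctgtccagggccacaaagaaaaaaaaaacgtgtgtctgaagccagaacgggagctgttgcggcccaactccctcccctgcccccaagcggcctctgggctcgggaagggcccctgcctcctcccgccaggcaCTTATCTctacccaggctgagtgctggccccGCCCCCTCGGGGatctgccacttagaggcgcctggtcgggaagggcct
ALAD: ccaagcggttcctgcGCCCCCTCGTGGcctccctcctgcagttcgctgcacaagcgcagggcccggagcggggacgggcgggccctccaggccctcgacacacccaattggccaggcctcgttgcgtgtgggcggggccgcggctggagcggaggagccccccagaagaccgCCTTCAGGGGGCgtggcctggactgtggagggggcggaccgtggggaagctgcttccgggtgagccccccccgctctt
The EPOR promoter held a GATA match that begins 79 bases before the start site and a CTCF core match that begins 48 bases before it, and the matches did not overlap. The ALAD promoter held CTCF core matches that begin 235 and 78 bases before its start. Neither of the other promoters held a match in this window. Over windows from 250 bases before to 50 bases after the start, 259 promoters of 201 protein-coding genes lay in member anchors. Of these, 2.7% held the CTCF core, 3.09% AP-1, 1.16% GATA and 1.93% KLF. Promoters in anchors of other kept loops held them in 3.36%, 5.49%, 2.08% and 2.88% of 4520 windows, and all 22198 protein-coding promoters of the table in 2.17%, 6.15%, 2.31% and 3.41%.

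The members carried between 4.24% and 4.49% of the contacts of a library at 0 h, between 3.09% and 3.26% at 6 h and between 3.07% and 3.19% at 72 h. These values chose the members and are a description. In bulk libraries, fewer cells with a loop and fewer contacts per cell cannot be told apart. The median member stood at 0.727 of its 0 h level at 6 h (range 0.457 to 0.8) and at 0.693 at 72 h (range 0.42 to 0.886). At 6 h, 5 members were at or below 0.5 of the 0 h level, 40 lay between 0.5 and 0.6, 113 between 0.6 and 0.7, and 283 between 0.7 and 0.8, so a partial decrease was the usual size. From 6 h to 72 h the median ratio was 0.966, and 272 members stayed within 0.9 to 1.1 of their 6 h level. The mean at 72 h was below that at 6 h for 270 members and not below it for 171. Every 72 h library lay below every 6 h library at 14 members and above at 5. The rule also bounds the 72 h level, so these counts describe the members and test nothing. In replicates 1 and 2 alone the median ratios to 0 h were 0.723 at 6 h and 0.714 at 72 h, and in replicates 3 and 4 they were 0.714 and 0.686.

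**Figure D1:**
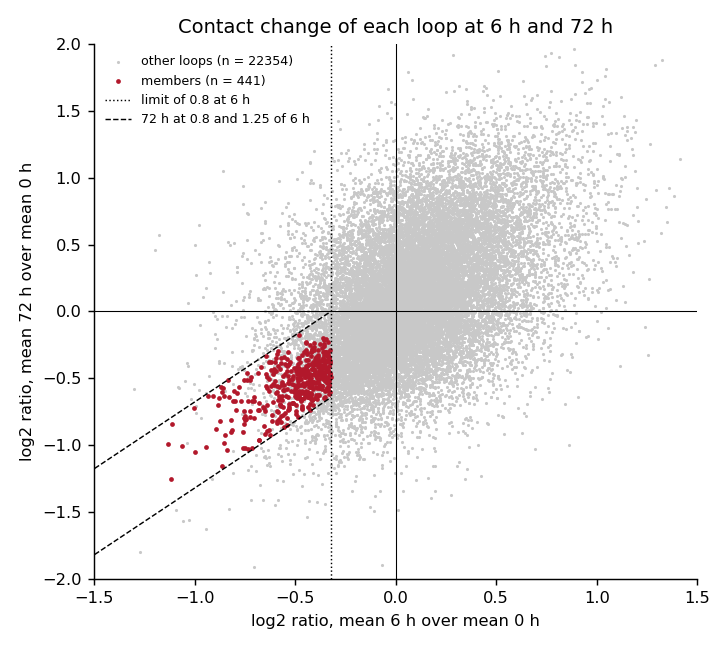
Each point is 1 of the 22795 kept loops, with the log2 ratio of the mean scaled contacts at 6 h over 0 h on the x axis and at 72 h over 0 h on the y axis, where 15 loops, none of them a member, lie outside the axes. The 441 members (red) sit left of the dotted limit at a ratio of 0.8 and between the dashed limits, where 1 of the 6 h and 72 h means is 0.8 of the other, as the rule requires, and grey points in the same area failed the separation of single libraries.

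**Figure D2:**
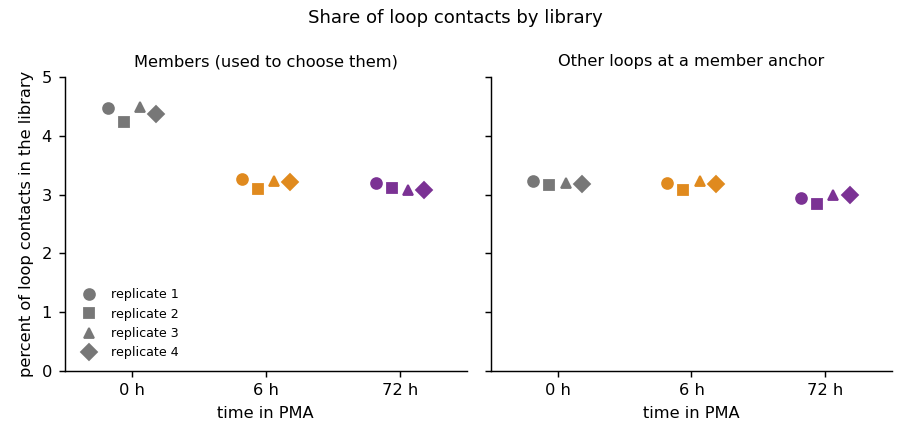
Percent of each library's loop contacts that fell in the members (left) and in the 686 kept loops that share 1 anchor with a member (right), 1 point per library and 1 symbol per replicate. The members' share was chosen to be lower at 6 h and 72 h, while the share of their neighbours at 6 h overlapped that at 0 h and every 72 h library lay below every 0 h and 6 h library.

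The separation itself was met by 2.95% of the kept loops, which is 672 loops, and 517 of those were at or below 0.8 at 6 h. Of the 517, 71 were left out because they fell below 0.8 of the 6 h level by 72 h, and 5 because their 6 h level was below 0.8 of that at 72 h. In edgeR's quasi-likelihood test with Benjamini-Hochberg adjustment at 0.05, 378 of the 441 members were called lost at 6 h against 0 h, where 4.07% of all tested loops were, and 430 at 72 h, where 16.9% were. That contrast chose the members, so the counts describe them only. Between 72 h and 6 h, 3 members were called lower and 1 higher, while 20.5% of all tested loops were called in either direction. The rule keeps the 72 h mean close to the 6 h mean, so few such calls follow from the choice and test nothing. Just inside the limit stood loop29678, with a ratio of 0.799, and loop15315, with 0.8. Just outside it stood loop17328 and loop12704, whose ratios round to 0.8 and 0.801.

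The strongest relative decreases were mostly at members with few contacts. The 10 of lowest ratio had means (n = 3) of 18.9 to 105 scaled contacts at 0 h. The median over the members was 87.5, from plain means of the 4 libraries. The loop at GALP between chr19:56070001-56080000 and chr19:56170001-56180000, with 100 kb between its anchors and the gene of the zinc finger protein ZNF787 between them, had 104, 96.5, 113 and 114 scaled contacts in replicates 1 to 4 at 0 h. It had 51.9, 42, 45.7 and 55.6 at 6 h and 48.5, 48.7, 64.5 and 53.6 at 72 h. The means were 105 ± 8.4 (SD, n = 3), 48.8 ± 6.1 (SD, n = 4) and 52.1 ± 6.0 (SD, n = 3), and no treated library came near the lowest untreated one. A loop in a zinc finger gene region of the same chromosome, loop30811 (chr19:21610001-21620000 and chr19:21690001-21700000), with no protein-coding start site between its anchors, had 80.2, 63, 106 and 107 scaled contacts at 0 h, 37.9, 35.1, 40 and 50.8 at 6 h and 35.1, 38.4, 39.8 and 36.1 at 72 h. Here the 0 h libraries were far apart, with replicate 2 lowest, and all 8 treated libraries were still below it. At loop11597 (chr5:79130001-79140000 and chr5:79460001-79470000), with an end of BHMT, the gene of a liver and kidney enzyme of methionine metabolism, in 1 anchor, the counts were 33.4, 41.1, 41.7 and 41.7 at 0 h, 13, 15.6, 22.9 and 24.2 at 6 h and 27, 18.7, 24.7 and 8.3 at 72 h. Replicate 4 was lowest at 72 h and rested on few contacts. The other members among the lowest 10 by ratio, loop22333, loop22767, loop30361, loop26366, loop28244, loop8905 and loop7040, had ratios of 0.463 to 0.538 at 6 h and 0.483 to 0.644 at 72 h, and no gene end lay in their anchors.

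Members with many contacts had smaller relative decreases. Members in the lowest of 5 equal count classes of kept loops had a median ratio of 0.582 at 6 h and those in the highest 0.747, and with few contacts a larger decrease is needed for all libraries to separate. The highest at 0 h, loop13645, joined chr6:37060001-37070000 and chr6:37100001-37110000 between MTCH1 and PIM1, a serine kinase gene. It had 316, 307, 309 and 293 scaled contacts at 0 h, 231, 222, 239 and 232 at 6 h and 201, 234, 217 and 234 at 72 h, a ratio of 0.754 at 6 h, with a gap between the untreated and treated libraries wider than the spread within any time. The loop at PROK1 (loop1954, chr1:110410001-110420000 and chr1:110450001-110460000) had 312, 270.3, 329 and 309.7 at 0 h, 258, 235, 243 and 236 at 6 h and 255, 249, 228 and 212 at 72 h, and its replicate 2 at 0 h was only slightly above the highest treated library. The loop at RBM28, a nucleolar RNA-binding protein gene (loop16748, chr7:128340001-128350000 and chr7:128380001-128390000), had 288, 285, 302 and 304 at 0 h, 222, 209.9, 254 and 241 at 6 h and 239, 274, 274 and 235 at 72 h. Its 72 h mean stood at 0.867 of the 0 h mean and its 6 h mean at 0.786, and the 6 h and 72 h libraries overlapped. Others among the 10 highest lay at MICB, a stress ligand of natural killer cells (loop13565, ratio 0.732 at 6 h), at AP1M2, an adaptor subunit of epithelial vesicle sorting (loop30677, 0.773), at WDR18, a ribosome assembly factor (loop30540, 0.765), and at SLC30A2, a zinc transporter (loop311, 0.761). Their mean at 0 h ranged from 245 to 308 scaled contacts over the 10, and all 10 ratios at 6 h were 0.732 to 0.797.

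Genes of red blood cell development stood at several members. Of 28 genes of a red cell list, 13 had an end in a loop anchor, and 4 of their 15 kept loops were members, against 1.93% of all kept loops. At EPOR (loop30687, chr19:11380001-11390000 and chr19:11440001-11450000) there were 122, 104, 122 and 126 scaled contacts at 0 h, 87.8, 91.8, 81.5 and 96.7 at 6 h and 101, 92.3, 102 and 92.4 at 72 h. Its 72 h libraries lay at 0.818 of the 0 h mean and its 6 h libraries at 0.755, and the treated groups overlapped each other. The loop into SLC25A37, the mitochondrial iron importer mitoferrin, (loop17282, chr8:23470001-23480000 and chr8:23520001-23530000) had 173, 151, 169 and 168 at 0 h, 114, 108, 126 and 114 at 6 h and 106, 101, 96.8 and 107 at 72 h. A second member, loop17283, joined the same upstream anchor with a segment inside that gene and had ratios of 0.708 at 6 h and 0.646 at 72 h.

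At the end of MYB, a transcription factor of immature blood cells, loop14998 (chr6:135210001-135220000 and chr6:135310001-135320000) had 94.4, 64, 71.2 and 92.3 scaled contacts at 0 h, 59.9, 57.6, 48.6 and 62.9 at 6 h and 56.6, 49.8, 48.4 and 50.8 at 72 h. Replicate 2 at 0 h was close to the highest treated library. The next segment, chr6:135320001-135330000 inside AHI1, was an anchor of 2 further members, loop14994 and loop14999, with ratios of 0.747 and 0.723 at 6 h and 0.656 and 0.738 at 72 h, chosen after their values were seen. The loop between GYPE and GYPB, glycophorin genes of the red cell surface (loop10059, chr4:143900001-143910000 and chr4:144010001-144020000), had 97.2, 98.4, 98.2 and 92.3 at 0 h, 68.9, 66.4, 72.9 and 73.8 at 6 h and 75.5, 68.4, 51.6 and 50.8 at 72 h, with replicates 3 and 4 lowest at 72 h. These genes are near-identical copies, so the placement of its reads is uncertain. Among the 12 tested loops of the list that are no members, edgeR called 1 lost at 6 h and 8 at 72 h, beside 2.55% and 15.4% of all tested non-member loops. All 16 tested loops of the list include the 4 members, which the rule chose to be lower, so values over the 16 are a description. Their median log2 fold change was -0.32 at 6 h and -0.43 at 72 h, against 0.01 and 0.01 over all tested loops. Of the 16, edgeR called 5 lost at 6 h and 12 at 72 h, beside 4.07% and 16.9% of all tested loops. It called 0 gained at either time (0 gained at an unadjusted p under 0.05), and DESeq2 called 3 and 10 lost and 0 gained. The list was chosen with earlier results of these data known.

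**Figure D3:**
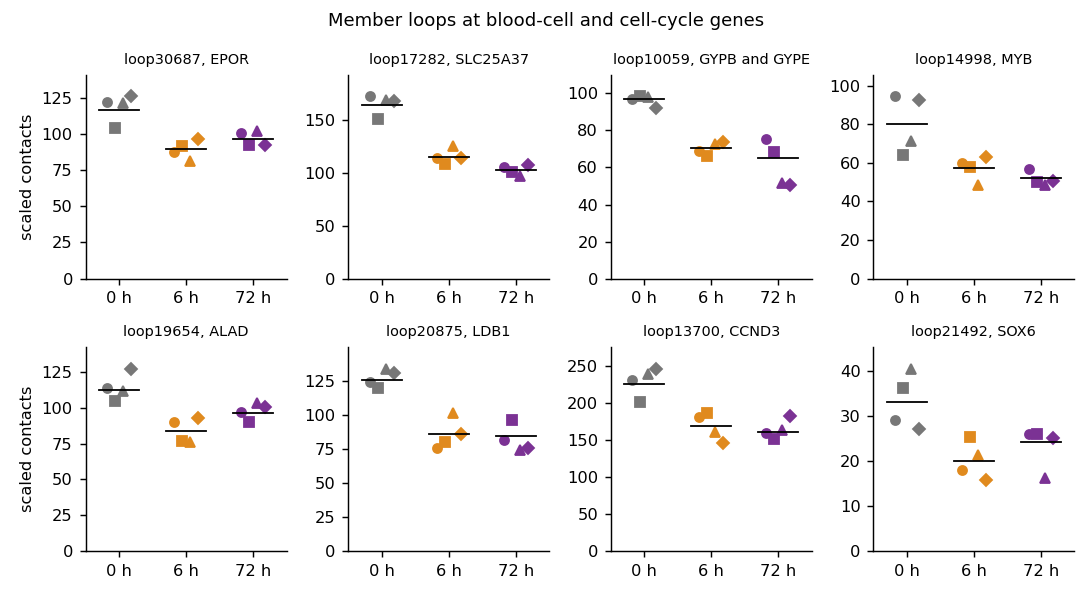
Scaled contacts of 8 members at blood-cell and cell-cycle genes, 1 point per library, with circles, squares, triangles and diamonds for replicates 1 to 4 and a bar at the mean with replicates 3 and 4 counted as 1 sample at 0 h and 72 h. At each of the 8 loops all 6 h and 72 h libraries lie below all 0 h libraries, as the rule requires, and the 6 h and 72 h ranges overlap at 7 of them but not at SLC25A37.

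The other lists gave at most 1 member each, where 1.93% of all kept loops were members. The lists are small, so these counts show neither a shortage nor an excess, and no test was made. Of the loops with an end of a cell cycle gene, 1 of 18 kept was a member. It was loop13700 (chr6:41930001-41940000 and chr6:42040001-42050000), both of whose anchors hold a start site of CCND3, a cyclin of the G1 phase, with 231, 202, 239 and 247 scaled contacts at 0 h, 181, 186, 162 and 146 at 6 h and 159, 151, 164 and 183 at 72 h. For protein kinase C and MAP kinase genes it was 1 of 17, loop5530 at an end of PRKCD, the protein kinase C delta gene, with 110.0, 103, 104 and 108 at 0 h, 76.9, 89.8, 72.9 and 77.4 at 6 h and 89, 87.1, 95.7 and 85.1 at 72 h. Its 72 h values stood mostly above its 6 h values and still below every 0 h library. For genes of the loop machinery it was 1 of 12 by start site, loop20875 at LDB1, the bridging factor of GATA1 enhancer complexes (chr10:102080001-102090000 and chr10:102110001-102120000), with 124, 119, 134 and 131 at 0 h, 75.9, 80, 102 and 85.9 at 6 h and 81.8, 96.4, 74.2 and 75.8 at 72 h. By gene ends, 0 of 35 kept loops of the AP-1 and immediate early list and 0 of 18 of the megakaryocyte list were members, as were 0 of 12 of the loop machinery. Among tested loops that are not members, 15.4% were lost and 17.0% gained at 72 h by edgeR. By gene ends, 6 were lost and 9 gained of 37 such loops of the AP-1 list, 6 and 6 of 19 of the megakaryocyte list, 1 and 7 of 16 of the kinase list, and 5 and 3 of 18 of the cell cycle list. Of 12 such loops of the loop machinery 4 were lost and 0 gained by edgeR, with 0 gained at an unadjusted p under 0.05 and 0 gained by DESeq2.

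Further members at genes with a role in blood cells or in PMA signalling are named after their values were seen. ALAD (loop19654, chr9:113310001-113320000 and chr9:113400001-113410000) had 114, 105, 112 and 127 scaled contacts at 0 h, 89.8, 77.1, 75.8 and 93.1 at 6 h and 97.1, 90.2, 103 and 101 at 72 h, so 72 h lay mostly above 6 h. SOX6, a repressor of embryonic globin genes, was at the weaker loop21492 (chr11:16200001-16210000 and chr11:16350001-16360000), with 29.1, 36.3, 40.5 and 27 at 0 h, 18, 25.4, 21.4 and 15.7 at 6 h and 26.1, 25.9, 16.1 and 25 at 72 h. Replicate 4 at 0 h was barely above the highest treated library there. The start of CITED2, a transcriptional co-regulator that binds p300 and CBP, was an anchor of 2 members, loop15074 and loop15076, which reached 270 and 450 kb away. They had ratios of 0.679 and 0.669 at 6 h and 0.583 and 0.643 at 72 h. A loop at IKZF1, the blood cell zinc finger factor Ikaros (loop16123), had ratios of 0.746 and 0.709, and the loops at the related tyrosine kinases TEC (loop8593) and BMX (loop32844) had 0.711 and 0.706, and 0.675 and 0.686. STIM1, the calcium sensor of the endoplasmic reticulum (loop21303), had 126, 136, 158 and 144 at 0 h, 108, 104, 103 and 96.7 at 6 h and 93.5, 105, 95.7 and 94.3 at 72 h, with the treated groups overlapping. UCP2, a mitochondrial carrier (loop22122), was among the larger decreases, with 88.7, 86.9, 104 and 94.6 at 0 h, 61.9, 54.7, 54.3 and 43.5 at 6 h and 58.4, 63.3, 59.2 and 67.5 at 72 h.

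Members in 2 gene clusters are named here after their values were seen. The replication-dependent histone genes of chromosome 6, which supply histones during S phase, were joined by 2 long members. The loop from H4C8 to H2AC11 (loop13475, 850 kb) had 21.3, 22, 23.3 and 20.3 scaled contacts at 0 h, 8.0, 18.5, 17.2 and 10.9 at 6 h and 10.8, 17.6, 18.3 and 18.5 at 72 h, and its 6 h values spanned a wider range than the difference between the means at 6 h and 0 h. The loop from H2BC12 to H2AC13 (loop13483, 660 kb) had 86.6, 75.4, 82.2 and 71 at 0 h, 59.9, 63.4, 60 and 60.5 at 6 h and 49.4, 45.6, 52.7 and 66.6 at 72 h, with the 6 h values close together. In the olfactory receptor genes on both sides of the beta-globin cluster lay loop21309 at OR51L1, loop21315 at OR51V1 and loop21327 at OR52E5, with ratios of 0.704, 0.715 and 0.736 at 6 h and 0.744, 0.759 and 0.659 at 72 h.

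No other loop of any kind lay at either anchor for 24.7% of the members, against 16.9% of the other kept loops. The members' anchors were 868 segments, of which 11 belonged to more than 1 distinct member with the loop that is listed a second time counted once, and 23 members lay at such segments. Along a chromosome the median distance between the centres of neighbouring members was 2980 kb, and 38 of 417 such distances were within 200 kb. Whether members share anchors or lie close together more or less often than other loops was not tested. The anchor chr4:55730001-55740000 held 3 members, which reached towards TMEM165, to the end of PDCL2 near CLOCK, and to the start of NMU, a neuropeptide gene. At the NMU loop (loop8688) there were 116, 109, 114 and 105 scaled contacts at 0 h, 66.9, 55.6, 78.6 and 61.7 at 6 h and 53.9, 49.8, 53.8 and 61 at 72 h, and the 6 h and 72 h libraries overlapped only through replicate 2 at 6 h. The other members there, loop8687 and loop8681, had ratios of 0.601 and 0.674 at 6 h and 0.628 and 0.614 at 72 h. A segment next to LGALS9, a galectin gene, at chr17:27600001-27610000 held the loop that is listed a second time, with a ratio of 0.765 at 6 h, and loop29502, with 0.751. From chr7:106790001-106800000 near PIK3CG, a lipid kinase gene of blood cells, loop16589 had ratios of 0.737 and 0.72. Its longer neighbour loop16591, which ends at the start of HBP1, a repressor of cell cycle genes, had 0.595 and 0.582.

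The members were short loops. Their median length was 110 kb, against 280 kb over all kept loops. They made up 7.66% of kept loops of up to 60 kb, 5.16% of those from 60 to 100 kb, 3.03% from 100 to 200 kb, 0.851% from 200 to 400 kb and 0.369% above 400 kb. Contacts of all kept loops moved with length in the same direction, with a median ratio of 6 h to 0 h of 0.935 up to 60 kb and 1.11 above 400 kb, and 0.888 and 1.185 at 72 h. When the trend with length was removed from each library, the rule chose 428 loops, of which 309 were among the 441. Members also had more contacts, since 5.34% of the kept loops in the highest of 5 equal count classes were members and 0.283% of those in the lowest. Within the highest count class the share of members still differed with length, at 8.56% up to 60 kb and 1.47% from 200 to 400 kb.

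Gene starts were more frequent in member anchors. Start sites on chromosome 8 were not used here. Of the 421 members on other chromosomes, 38% had a protein-coding start site in an anchor, against 21.3% of the other kept loops, and 5.46% against 2.18% had one in both. Among loops of up to 60 kb the shares were 55.7% and 35.1%, from 60 to 100 kb 40.8% and 31.2%, from 100 to 200 kb 32.4% and 24.7%, from 200 to 400 kb 26.3% and 20%, and above 400 kb 18.5% and 15.2%. Thus the members' share was higher in each of the 5 classes, with 27 members in the last. Both anchors lay inside protein-coding genes at 50.6% of the members and 36.6% of other kept loops. No test was made of these shares, since loops are not replicates and members were chosen on their counts. By chromosome, members were 4.05% of kept loops on chromosome 19, 2.99% on chromosome 17 and 2.93% on chromosome 21, and 0.37% on chromosome 5, 0.49% on chromosome 20 and 0.59% on chromosome 2. The median length of kept loops was 180 kb on chromosome 19, 200 kb on chromosome 17 and 260 kb on chromosome 21, and 320 kb on chromosome 5, 250 kb on chromosome 20 and 290 kb on chromosome 2, and the part of length in these shares was not tested.

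**Figure D4:**
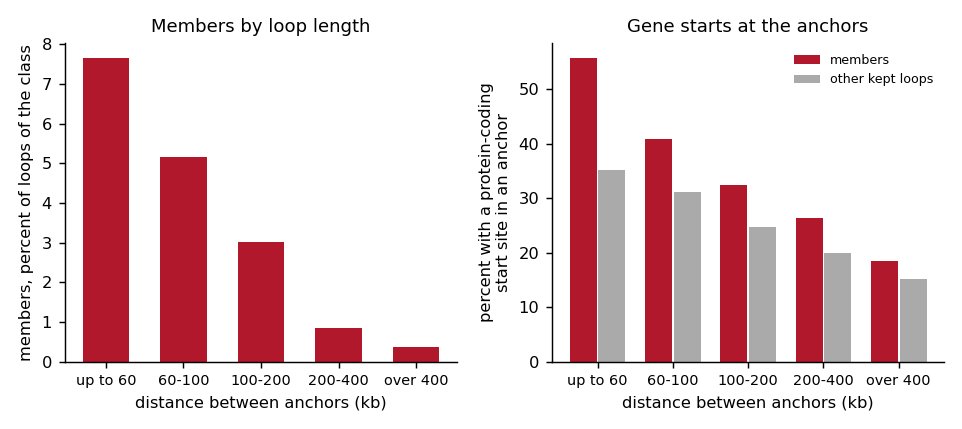
Members as a percent of the kept loops of each length class (left) and the percent of members (red) and other kept loops (grey) with a protein-coding RefSeq start site in an anchor (right), by the distance between the anchors in kb. The share of members goes from 7.66% up to 60 kb to 0.369% above 400 kb, and the members' share with a start site is above that of the other loops in all 5 classes.

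In the authors' deposited table, 107 of the 441 members (24.3%) were classed as lost and 334 as static. These 107 were 21.3% of the 503 loops that the authors' deposited table classed as lost among its 33914 loops. The median log2 fold changes given there for the members classed as lost were -0.46 at 6 h and -0.64 at 72 h, whereas the other loops classed as lost had -0.07 and -0.74. An adjusted p for 6 h against 0 h was given in the authors' deposited table for 428 members, and it was under 0.05 for 292. That contrast chose the members, so the count describes them only, and the share over all loops was not counted.

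To see how far the choice of loops on their own counts inflates their size, the rule was applied to replicates 1 and 2 alone and the loops chosen were read in replicates 3 and 4. It chose 1145 loops, and 77.6% of them lay below 0 h at both times in the other replicates, where 29.9% did of the 23739 loops with a mean count of at least 10 in the replicates that chose. Their median ratio at 6 h was 0.837 there, compared with 0.73 in the replicates that chose them. At or below 0.8 were 40.3% of them and 16.8% of the 23739. In the reverse direction 1090 loops were chosen, 77.2% were below at both times in replicates 1 and 2 (30.8% of the 21700 loops kept by the same filter), and the median ratio was 0.829 compared with 0.715. At or below 0.8 were 41.0% of these and 13.6% of the 21700. Of the loops chosen in 1 pair, 277 and 283 met the whole rule in the other, and 226 and 229 of those were members. Over all loops kept, 1213 of 23739 and 1201 of 21700 met it in the other pair. Every member separates in both pairs by the rule, so the overlap with the members is largely fixed by the choice and tests nothing. With fewer libraries the rule is looser, and most of the 1145 and 1090 loops are not among the 441 members. Their change in size is thus not a measure of that of the members. The shares over all loops were not matched for length. The decrease at 6 h was thus smaller in the replicates that did not choose the loops, and most of the loops were lower there too. In those replicates the median ratio of 72 h to 0 h was 0.757 and 0.77. The median ratio of 72 h to 6 h was 0.907 and 0.926 there, beside 1.015 and 0.99 over all loops kept. The median chosen loop thus stood lower at 72 h than at 6 h where the rule did not bound its 72 h level.

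Loops that share 1 anchor with a member, and whose other anchor is at least 50 kb away from that member's other anchor, were not chosen by the rule and were tested. At 72 h they were lost more often than gained, whereas at 6 h the counts were small in both directions. There were 768 such loops, 705 of them tested, and 310 members had at least 1 tested. At 6 h edgeR called 35 lost (4.96%) and 22 gained (3.12%), where 2.55% and 2.38% of all tested non-member loops were, with a median log2 fold change of -0.02. At 72 h it called 161 lost (22.8%) and 60 gained (8.51%), where 15.4% and 17.0% of all tested non-member loops were, with a median of -0.14. Non-member loops of the same lengths were lost in 2.08% of cases at 6 h and 14.3% at 72 h, and gained in 2.43% and 17.0%. With libraries scaled to total counts the split at 6 h was 22 lost and 30 gained, so the majority at 6 h turned with the scaling, and DESeq2 called 10 lost and 6 gained. The 6 h calls moved with single libraries: without 0 h replicate 1 they were 14 lost and 8 gained, without 6 h replicate 2 they were 18 lost, and without 6 h replicate 3 they were 13 gained. At 72 h, 37 were called gained without 0 h replicate 1.

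By member, 33 of the 310 had a shared-anchor loop that was lost at 6 h and 132 one that was lost at 72 h, and 17 and 49 had one that was gained. How many loops that are not members have such a neighbour was not counted, so these counts by member are a description only. As a share of all contacts, the 686 kept shared-anchor loops held 3.23%, 3.17%, 3.2% and 3.18% in replicates 1 to 4 at 0 h. They held 3.2%, 3.07%, 3.24% and 3.18% at 6 h and 2.94%, 2.84%, 3.0% and 2.99% at 72 h. The 6 h libraries overlapped those of 0 h, and the difference of the means was -0.026 percentage points (two-sided exact permutation test, p = 0.8, adjusted over 3 comparisons 0.8). It was 0.02 within replicates 3 and 4 and 0.009 without 6 h replicate 2. From 0 h to 72 h the share differed by -0.271 percentage points, with every 72 h library below every 0 h library (exact p = 0.1, the smallest that n = 3 against n = 3 allows, adjusted 0.15). From 6 h to 72 h it differed by -0.245 (exact p = 0.0286, the smallest possible here, adjusted 0.0857), so neither passed 0.05 after adjustment.

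Single shared-anchor loops moved in both directions beside a member that was lower by the rule. The member loop16945 (chr7:142870001-142880000 and chr7:143000001-143010000), whose first anchor holds ends of EPHB6 and TRPV6 and which spans KEL, the Kell blood group gene, had 198, 199, 223 and 215 scaled contacts at 0 h, 109, 117, 134 and 114 at 6 h and 114, 112, 99 and 122 at 72 h. From its second anchor loop16939 reached further, to chr7:142620001-142630000, and had 44.7, 50.6, 49.1 and 47.3 at 0 h, 73.9, 71.3, 100.1 and 100.4 at 6 h and 72.8, 63.3, 81.8 and 74.9 at 72 h, all treated libraries being higher. In edgeR's fit it rose by 0.78 on the log2 scale at 6 h (SE 0.14, adjusted p = 4.7e-05) and by 0.56 at 72 h (SE 0.14, adjusted p = 0.00095). A like pair lay near JMJD1C, the gene of a histone demethylase family member. There the member loop20460 (chr10:63160001-63170000 and chr10:63710001-63720000) had 80.9, 81.2, 73.6 and 85.6 at 0 h, 49.9, 57.6, 55.8 and 66.5 at 6 h and 56.6, 59.1, 65.6 and 51.8 at 72 h. The shorter loop20468 from the same anchor to chr10:63630001-63640000 had 90.9, 108, 104 and 89 at 0 h, 176, 136, 170.1 and 166 at 6 h and 165, 161, 156 and 168 at 72 h (log2 fold change 0.68, SE 0.11, edgeR adjusted p = 4.8e-06 at 6 h).

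In the opposite direction, loop15881 (chr7:30740001-30750000 and chr7:30970001-30980000), which spans the water channel gene AQP1, fell beside member loop15882. It had 128, 101, 123 and 118 scaled contacts at 0 h, 61.9, 84.9, 68.6 and 85.9 at 6 h and 118, 89.2, 90.4 and 87.8 at 72 h, which edgeR put at -0.69 on the log2 scale at 6 h (SE 0.12, adjusted p = 4.4e-05) and -0.34 at 72 h (SE 0.11, adjusted p = 0.013). The member kept to 0.76 and 0.715 of its 0 h level at the 2 times. The loops loop17001 and loop461 fell by 0.64 and 0.61 on the log2 scale at 6 h (edgeR adjusted p = 0.0002 and 0.00023), beside members loop17002, with a ratio of 0.675, and loop464 in MACF1, a cytoskeletal linker gene, with 0.748.

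Loops with other positions relative to a member were counted in the same fit. Of 56 loops with 1 anchor shared and the other within 50 kb of the member's, 16.1% were lost at 6 h and 50% at 72 h, but neighbouring segments can count parts of 1 contact peak. Loops inside a member, 207 of them tested, were lost in 13% and 33.8%, compared with 4.92% and 23.1% of non-member loops of the same lengths. Loops around a member, 933 of them tested, were lost in 1.5% at 6 h, compared with 0.905%, and in 20.8% at 72 h, compared with 9.06%. Loops with none of these relations were lost in 2.38% and 14.7%. Thus the lost share at 6 h was highest for loops inside a member or with both anchors at it, and at 72 h all 4 related sets had a lost share above that of their length. These shares carry no test, since loops of 1 region are not independent.

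**Figure D5:**
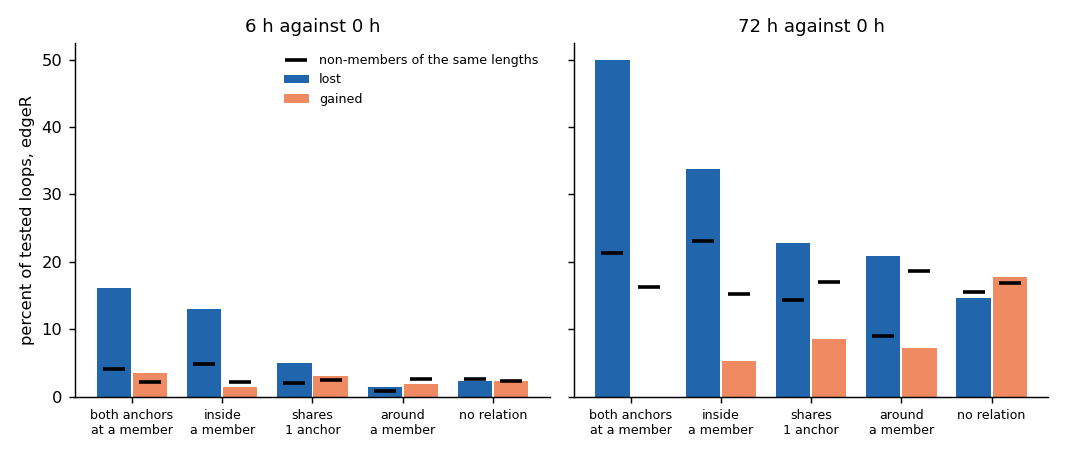
Percent of tested non-member loops that edgeR called lost (blue) or gained (orange) at 6 h (left) and 72 h (right) against 0 h, by position relative to a member, with black marks for non-member loops of the same lengths. Loops that share 1 anchor were lost in 4.96% at 6 h and 22.8% at 72 h, above the marks at 2.08% and 14.3%, and loops with no relation lay near their marks.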

How the data were processed

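In situ Hi-C contacts of 42 samples (14 at each of 0 h, 6 h and 72 h) were deposited as 1 table of raw contact counts per loop with anchor positions in hg38. The count columns, as deposited, hold whole numbers of read pairs per loop and technical or sequencing replicate, processed with Juicer 1.5.6 per the submitters' processing notes. The log2 fold changes, p-values adjusted for multiple tests and loop classes in the table are the authors' own, and DESeq2 is named in the submitters' notes. How the loops were called is not given in the sources used here.

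The 30 count columns were summed to 12 libraries, 4 per time. Where a column name of replicate 3 or 4 does not say which sequencing run it holds, it was used by its time and replicate. The members and the gene lists were chosen with earlier results of these data known. The whole table was fitted with edgeR 4.0.16 in R 4.3.3 (filterByExpr with a minimum count of 10, TMM scaling, quasi-likelihood test, 3 time groups, Benjamini-Hochberg adjustment at 0.05), which was tested on simulated data. Shares of contacts were compared by two-sided exact permutation tests over libraries. The alternatives were DESeq2 1.42.0, other scalings, filters, length and batch terms, other anchor distances, the replicate number as a block, and leaving out each library. Replicate numbers were not used to pair the libraries in the main fit. The correlation of same-numbered deviations was 0.02 to 0.118, weak but positive for all 12 pairs and above 0.1 for 1. Whether the libraries were paired was not tested. Gene positions and sequences come from RefSeq GRCh38.p14. Loops named are the 10 members of lowest ratio and the 10 highest at 0 h. Members with an end or a start site of a gene of 6 lists in an anchor are also named. So are those at the 5 anchors with most members and the loops nearest to the 0.8 limit. The 5 shared-anchor loops of smallest p at 6 h are named with the members beside them. Other loops are stated as chosen after their values were seen.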

Additional observations from a re-analysis of the deposited data

Results flagged for a closer look

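At loop22333, the member between chr11:93910001-93920000 and chr11:94090001-94100000 near PANX1, 1 of the 4 libraries at 6 h stood apart, with 17.2 scaled contacts in replicate 3 where the others had 23 to 24. Of 46 groups of 4 libraries examined this was the only one, where chance gives about 1 in 20, or 2.3 groups, so 1 such group is no more than chance gives. Without that library the ratio of 6 h to 0 h stayed below the limit of the rule.

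The shared-anchor loop15881 around AQP1 changed between the treated times, with a log2 difference of 0.35 from 6 h to 72 h (SE 0.13, edgeR adjusted p = 0.041), after its fall at 6 h. Its 72 h libraries had 118, 89.2, 90.4 and 87.8 scaled contacts, so replicate 1 was highest and the others lay just above the highest 6 h value of 85.9.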

How the results depend on the processing

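The rule chose 291 loops at a limit of 0.75. It chose 756, of which 410 were among the 441, when the counts of replicates 3 and 4 were added up at each time, an alternative chosen after seeing the data. The other settings, which include 450 to 613 loops without single libraries, were within 1.5 times 441. Of the shared-anchor loops DESeq2 called 10 lost and 6 gained at 6 h and 105 and 26 at 72 h. Total count scaling called 22 lost at 6 h, and a length offset called 12 gained at 6 h and 38 at 72 h. Anchors matched within 10 kb gave 65 lost at 6 h, and 311 lost and 107 gained at 72 h. Without single libraries the calls were 14 to 36 lost and 8 to 22 gained at 6 h, and 136 to 174 lost and 37 to 62 gained at 72 h. The share of contacts of these loops differed by -0.047 to 0.009 percentage points at 6 h without single libraries and by 0.02 within replicates 3 and 4. With each library as a sample, added after seeing the data, it differed by -0.252 from 0 h to 72 h and -0.228 from 6 h to 72 h (both exact adjusted p = 0.0429). A minimum count of 20 moved the shares of loops below 0 h in the replicates not used for the choice to 81.6% and 81.5%. The causes of these shifts were not tested. With the replicate number as a block, edgeR called 43 lost and 28 gained at 6 h and 171 and 62 at 72 h, within 1.5 times the counts without it. Of 720 values of named loops under other settings, 714 moved by less than the spread between libraries and none changed direction. These loops were chosen with every 6 h library below every 0 h library. Leaving out a library could thus hardly reverse them, and the unchanged direction tests nothing. Of 220 values of named shared-anchor loops, 3 lost their call, all of loop15881 at 72 h. Loops with few contacts limit the precision, since the rule needs every library to separate.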
